A study of Mus musculus with 5 samples.

Results

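Solute carriers are membrane proteins that move ions, sugars, amino acids, nucleotides, metals and other small molecules across the cell and organelle membranes. The genes described carry an Slc symbol and were chosen by detection: the scanner flagged their brightest probe as well above background on all 5 arrays of the series. The rule set aside 10 genes, mostly of iron, zinc, arginine and cystine transport (Slc40a1, Slc11a1, Slc11a2, Slc48a1, Slc7a2, Slc7a11, Slc2a1, Slc30a1, Slc39a8 and Slc39a14). Of 361 such genes with a probe and a value on the arrays, 235 met the rule, or 65.1%, beside 68.0% of the 20121 genes with a value. Another 96 were above background on no array and 30 on 1 to 4 arrays. By symbol, 4 of the 235 are not carriers but proteins named after one (Slc9a3r1, Slc9a3r2, Slc4a1ap and Slc7a6os). Since the flags selected the genes, their detection is not a result.

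RNA came from cells that were washed out of the peritoneum of BALB/c females, 2 h after 1 of 5 intraperitoneal injections. These were PBS, 50 µg AEPS, 25 µg OVA, 25 µg OVA with 50 µg AEPS, and 25 µg OVA with 200 µg alum. AEPS is a polysaccharide from roots of the kiwifruit relative Actinidia eriantha, OVA is the antigen ovalbumin, and alum is an aluminium adjuvant. Each injection had 1 single-colour array, so no difference could be set against a spread between replicates, and none was tested. Whether an array holds RNA of 1 mouse or of several was not stated.

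A lavage mixes macrophages, B cells, T cells, mast cells and, after an irritant, neutrophils, each with its own set of carriers. In activated immune cells, glucose uptake carriers and lactate exporters serve glycolysis, amino acid carriers feed protein synthesis, and lysosomal carriers return the products of digestion to the cytosol. Mitochondrial carriers of the Slc25 family link the cytosol with the matrix.

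Promoters are shown for the gene with the widest range over the arrays (Slc10a6), for the gene lower on both AEPS arrays (Slc35a5) and for the lactate exporter Slc16a3, since their values carry the main patterns. Each runs from 250 bases before to 50 after the RefSeq start of the gene in assembly GRCm38.p6, 5′ to 3′ on the gene's strand, with matches to ACGTG or GGNNNTTCC on either strand in capitals.
Slc10a6, chr5:103629354-103629653, minus strand: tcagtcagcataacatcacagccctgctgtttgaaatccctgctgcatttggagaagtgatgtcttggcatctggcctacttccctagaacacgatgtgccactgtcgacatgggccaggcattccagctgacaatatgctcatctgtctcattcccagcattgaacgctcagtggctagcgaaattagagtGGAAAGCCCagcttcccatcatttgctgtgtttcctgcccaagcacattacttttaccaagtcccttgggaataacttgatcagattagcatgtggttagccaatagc
Slc35a5, chr16:45158624-45158923, minus strand: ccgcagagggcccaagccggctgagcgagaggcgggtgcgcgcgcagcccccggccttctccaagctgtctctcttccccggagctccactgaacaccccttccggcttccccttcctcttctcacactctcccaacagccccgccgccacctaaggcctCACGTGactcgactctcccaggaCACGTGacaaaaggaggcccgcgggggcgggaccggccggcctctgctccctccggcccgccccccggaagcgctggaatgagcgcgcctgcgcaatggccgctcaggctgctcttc
Slc16a3, chr11:120948817-120949116, plus strand: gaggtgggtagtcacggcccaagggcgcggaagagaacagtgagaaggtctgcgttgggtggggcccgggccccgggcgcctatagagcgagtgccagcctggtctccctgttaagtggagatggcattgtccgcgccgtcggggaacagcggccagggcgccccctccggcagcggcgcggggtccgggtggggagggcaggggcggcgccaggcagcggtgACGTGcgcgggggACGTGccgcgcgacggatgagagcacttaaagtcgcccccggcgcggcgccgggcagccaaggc
The letters searched on both strands were GAAANNGAA (interferon response), TTCNNNGAA (STAT), GGNNNTTCC (NF-kB), TGANTCA (AP-1) and ACGTG (the core of the hypoxia response element, which the E-box CACGTG contains). Slc10a6 held GGNNNTTCC once, on the opposite strand, from 58 bases before the start site, and none of the others. In Slc35a5, 2 places spelled CACGTG, which start 90 and 67 bases before the start site. In Slc16a3, ACGTG began 27 and 14 bases before it. The windows of Slc4a3 and Slc25a22, which were higher on both AEPS arrays, were searched too. They held none of the letters searched and are not printed. Of all 32851 windows, 19.6% held ACGTG, 18.5% the NF-kB letters, 8.56% the interferon letters, 8.3% STAT and 7.81% AP-1. These are matches of letters and describe no binding.

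Levels are log2 signal relative to the array's 75th percentile, so 0 is that percentile, and they are compared between arrays for 1 gene at a time. A difference was counted at 2-fold or more, and its technical SE, from the scanner's spot error, was 0.20 for well-measured probes and at most 0.45 for the genes below. It leaves out the spread between mice. Between 56.8% and 60.0% of probes were above background on an array, and all 10 markers of large peritoneal macrophages were detected on every array. The PBS array lay in another row of the slide than the other 4, so row and injection cannot be told apart in comparisons with PBS. Scaling to 8 spike-in probes, chosen after seeing the data, added 0.66 to each AEPS vs PBS difference and 0.29 to each OVA vs PBS difference. It added 0.16 to OVA+AEPS when set against OVA and 0.17 when set against OVA+Alum, and took 0.21 from it when set against AEPS. The sign of a small difference therefore depends on the scaling, and the AEPS vs PBS split most of all.

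Most solute carrier genes moved little. The highest and lowest of the 5 arrays differed by at least 2-fold for 60 of the 235, beside 25.9% of the 13678 genes detected on all arrays, and the median range was 0.70 beside 0.67. In AEPS vs PBS, 10 were at least 2-fold higher and 17 lower, where 7.44% and 4.87% of all genes were. Their median difference was -0.20, beside -0.16 for all genes, and with spike-in scaling the split turned to 39 higher and 3 lower with medians of 0.46 and 0.50. In OVA vs PBS, 7 were higher and 6 lower (background 5.23% and 2.31%), or 14 and 4 with spike-in scaling. As shares of the 235, the AEPS counts were 4.26% and 7.23% and the OVA counts 2.98% and 2.55%. No result about solute carriers as a whole is read from them, since they lie near the background and the AEPS split turned with the scaling.

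Adding AEPS to OVA left 4 genes at least 2-fold higher and 6 lower (background 2.51% and 2.16%), or 6 and 5 with spike-in scaling, 3 and 9 with scaling to the array median and 3 and 7 with quantile normalization. Adding alum to OVA left 6 higher and 4 lower (background 2.59% and 3.98%). Between the adjuvants, OVA+AEPS had 7 higher and 16 lower genes than OVA+Alum (background 5.47% and 5.36%). That split was 10 and 11 with spike-in scaling and 5 and 24 with the array median. Adding OVA to AEPS left 1 higher and 4 lower (background 0.578% and 0.68%). The remaining pairs were OVA+Alum vs PBS, with 10 higher and 10 lower (background 5.25% and 3.61%), OVA+AEPS vs PBS, with 8 and 13 (7.09% and 4.66%), and AEPS vs OVA, with 8 and 3 (2.79% and 1.59%). With spike-in scaling these came to 18 and 3, 21 and 4, and 13 and 0. With the array median, OVA+Alum vs PBS came to 11 and 5.

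**Figure D1:**
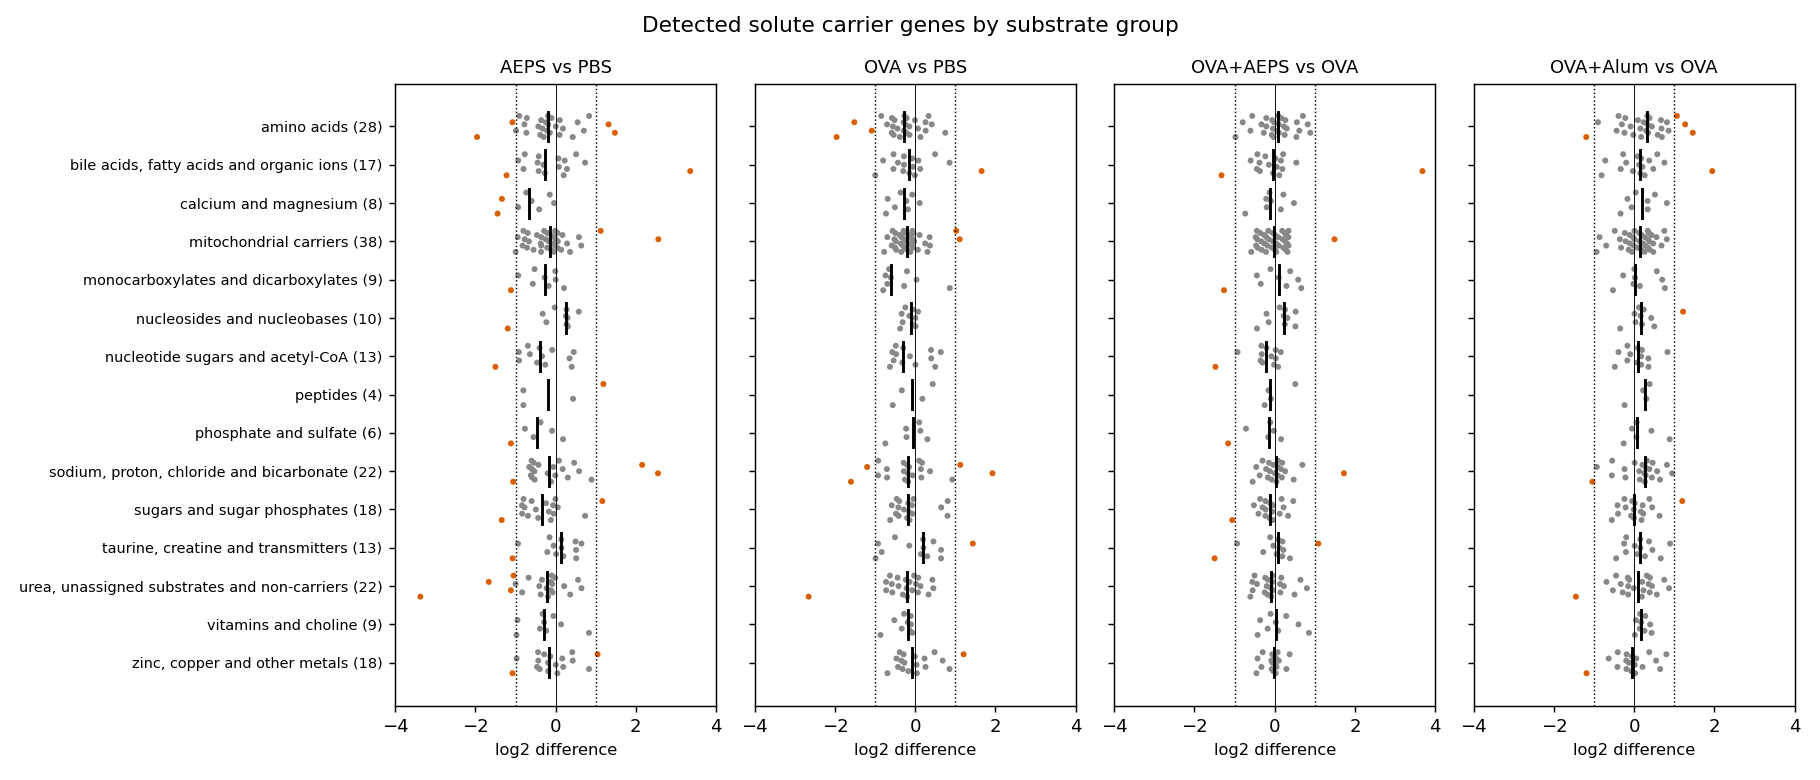
Log2 difference of each of the 235 genes (points) in 4 comparisons, by the substrate group of its family, with the number of genes in parentheses. Orange points are at least 2-fold (dotted lines) and the black bar is the group median. Most points of all 15 groups lie between the dotted lines, and the farthest to the right in OVA+AEPS vs OVA is Slc10a6 at 3.68.

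The comparisons AEPS vs PBS and OVA+AEPS vs OVA share no array. Slc10a6, Slc4a3 and Slc25a22 were at least 2-fold higher in both (background 1.59%) and Slc35a5 lower in both (background 0.848%). Across the 235 genes, which are not independent replicates, the 2 differences had a Pearson r of 0.52 and a Spearman rho of 0.44, beside an r of 0.46 for all genes. All 10 genes called higher in AEPS vs PBS lay above 0 in OVA+AEPS vs OVA, and 14 of the 17 called lower lay below 0. Among all genes called in AEPS vs PBS, 76.2% of the higher and 83.2% of the lower ones kept their sign there, so nothing particular to solute carriers is read from these counts. With normexp background correction, 2 of the 3 higher genes were called in both (Slc4a3 was 0.94 in OVA+AEPS vs OVA), and none was called lower in both.

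**Figure D2:**
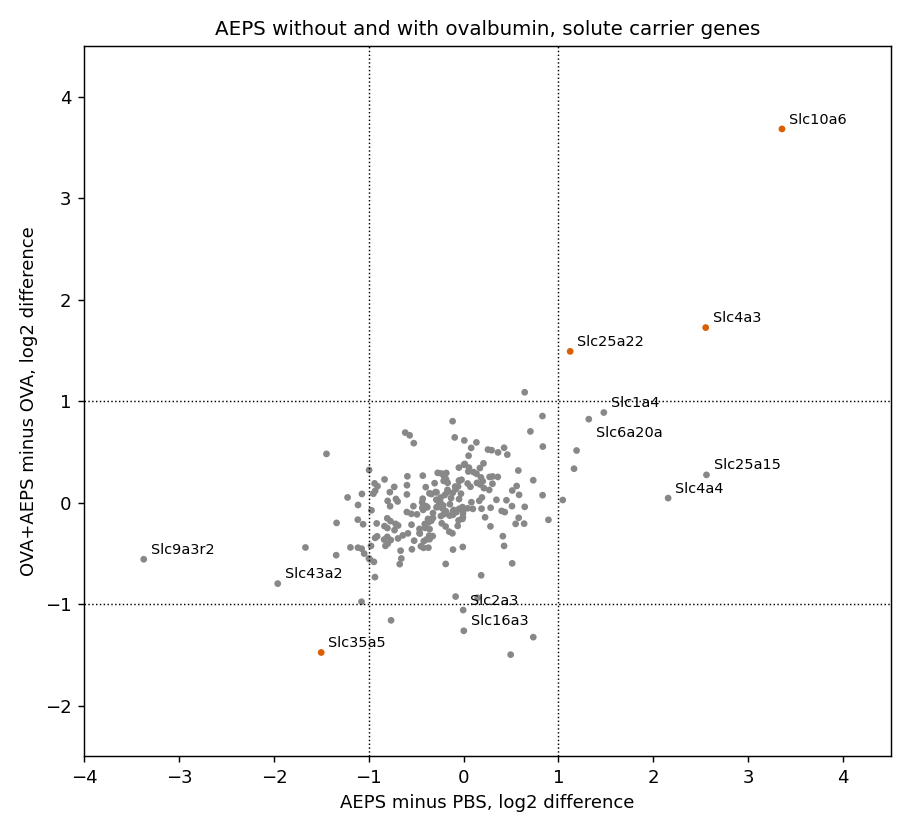
Log2 difference of AEPS minus PBS (horizontal) and OVA+AEPS minus OVA (vertical) for the 235 genes, with dotted lines at 2-fold and orange points past it in both. Slc10a6, Slc4a3 and Slc25a22 lie in the upper right corner and Slc35a5 in the lower left.

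Among the carriers of bile acids, fatty acids and organic ions, Slc10a6 stood out. It is a sodium-dependent carrier of sulfated steroids. Its level was -2.18 with PBS, 1.17 with AEPS, -2.19 with OVA, 1.49 with OVA+AEPS and -0.25 with OVA+Alum. Both AEPS arrays were high, the alum array was between, and PBS and OVA were alike and low. The differences were 3.36 ± 0.21 (10.2-fold, technical SE) in AEPS vs PBS and 3.68 ± 0.21 (12.8-fold) in OVA+AEPS vs OVA. In OVA+Alum vs OVA the difference was 1.94. A second probe gave 3.25, 3.43 and 1.40. In the same group, Slc22a20, an organic anion carrier, had -1.76 with PBS, -1.03 with AEPS, -0.10 with OVA, -1.43 with OVA+AEPS and 0.65 with alum. It was highest with alum, next with OVA and lowest with PBS. Slc22a15 ranked the arrays the same way, from 0.15 with PBS to 1.58 with alum. Slc10a1, known as the bile acid uptake carrier of hepatocytes, had a level between 8.81 and 9.09 on every array, from 1 matched probe. In all, 6 of the 17 genes of this group had a range of at least 2-fold, beside 25.9% of all genes. The substrate groups are small, so none is read as more or less variable from such counts.

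Among the 22 carriers of sodium, protons, chloride and bicarbonate, 9 had a range of at least 2-fold (background 25.9%). The Slc4 family held the widest range. Slc4a3, a chloride-bicarbonate exchanger, had -4.10 with PBS, -1.55 with AEPS, -3.18 with OVA, -1.45 with OVA+AEPS and -2.80 with OVA+Alum. Both AEPS arrays were highest. AEPS vs PBS was 2.55 ± 0.26 and OVA+AEPS vs OVA 1.72, while normexp gave 1.32 and 0.94 for this dim probe. Slc4a4, a sodium bicarbonate cotransporter, had -3.52, -1.37, -1.59, -1.55 and -2.64, in the order just given. It was low on the PBS and alum arrays, and these 2 lie in the same column of the slide. Of the 235 genes, 1 (Slc4a4) had both of these arrays at least 2-fold below the other 3, and of the 13678 genes 139 had. A second probe gave 2.35 in AEPS vs PBS and 2.20 in OVA vs PBS, beside 2.16 and 1.93. Slc4a7, another sodium bicarbonate cotransporter, was likewise lower with PBS (0.42) and alum (0.61) than on the other arrays (1.31 to 1.54) by its brighter probe. A second probe gave 0.33 in OVA vs PBS where this one gave 1.12. Of the mast cell list, Cpa3, Fcer1a and Mrgprb2 were also low on the PBS and alum arrays. In the same order of arrays, Cpa3 had 2.97, 5.05, 5.17, 4.95 and 2.77. Fcer1a had 0.22, 1.95, 1.85, 2.05 and 0.69. The list was not uniform. Hdc was low with PBS alone. Kit, Cma1, Tpsb2 and Mcpt4 were under 2-fold in OVA vs PBS and in OVA+Alum vs OVA. The part of mast cells in these values was not tested.

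Slc4a1 is band 3, the anion exchanger of red cells. Its level was -0.59, -0.00, -2.19, -2.11 and -1.24 for PBS, AEPS, OVA, OVA+AEPS and OVA+Alum. The order of the arrays, from AEPS down through PBS, OVA+Alum and OVA+AEPS to OVA, was that of the red cell gene Alas2 (4.81, 5.88, 2.75, 3.57 and 4.37) and of the globin gene Hbb-bs (7.34, 8.06, 5.77, 6.46 and 7.02). Of the 60 variable genes, 3 had this order, Slc4a1, Slc6a20a and Slc38a5, beside 1.21% of the 3541 variable genes on the arrays. For Slc4a1 the last step, OVA+AEPS above OVA, was only 0.08 with a technical SE of 0.21, and it was -0.02 with array median scaling, so OVA+AEPS and OVA have no settled order there. For Alas2 that step was 0.83. Slc6a20a, a proline carrier, had 1.86, 3.18, -0.10, 0.73 and 1.36, and was 1.32 higher in AEPS vs PBS and 1.96 lower (-1.96) in OVA vs PBS. Slc38a5, a glutamine carrier, had -2.88, -2.04, -4.39, -3.84 and -3.12, from a dim probe. All 3 were at least 2-fold lower with OVA+AEPS than with AEPS, at -2.11, -2.46 and -1.80. With normexp these were -1.65, -2.32 and -0.84, so the call for Slc38a5 was lost. Of the red cell and platelet list, to which Slc4a1 itself belongs, 6 of 7 genes were detected on all arrays, with a summed log2 level between 9.65 (OVA) and 11.01 (AEPS). The list was not uniform. Its member Pf4 was highest with OVA+AEPS (8.91) and lowest with alum (7.91), and Itga2b was highest with alum (-3.02) and lowest with PBS (-4.29). More cells of a type and more RNA per cell cannot be told apart in such mixed samples, and the part of red cells in these values was not tested.

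**Figure D3:**
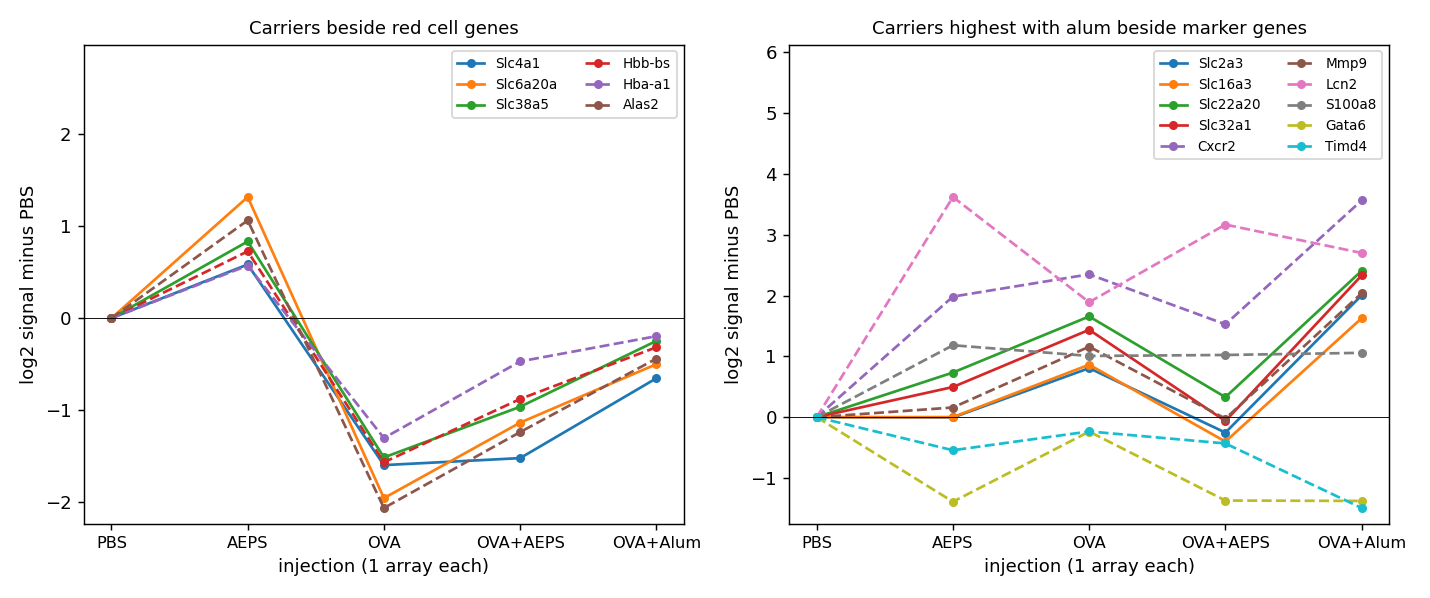
Log2 signal of each gene minus its PBS value on the 5 arrays (1 per injection). Left, Slc4a1, Slc6a20a and Slc38a5 (solid) beside Hbb-bs, Hba-a1 and Alas2 (dashed), all highest with AEPS and lowest with OVA as drawn. For Slc4a1, OVA and OVA+AEPS lay only 0.08 apart and have no settled order. Right, Slc2a3, Slc16a3, Slc22a20 and Slc32a1 (solid) beside the neutrophil genes Cxcr2, Mmp9, Lcn2 and S100a8 and the macrophage genes Gata6 and Timd4 (dashed). The 4 carriers (Slc32a1 by its brighter probe), Cxcr2 and Mmp9 are highest with OVA+Alum, while Lcn2 and S100a8 are highest with AEPS.

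A glucose carrier and a lactate exporter were highest with alum and lowest with OVA+AEPS. Slc2a3, the high-affinity glucose carrier GLUT3, had 3.10 with PBS, 3.09 with AEPS, 3.90 with OVA, 2.84 with OVA+AEPS and 5.10 with OVA+Alum. The alum array was more than 2-fold above every other array, a pattern that 0.644% of all genes shared. Slc16a3, the lactate exporter MCT4 whose promoter is printed above, had 5.94, 5.94, 6.80, 5.54 and 7.57. For it too the alum array was highest, OVA next and OVA+AEPS lowest. OVA+AEPS vs OVA+Alum was -2.26 ± 0.20 (4.78-fold) for Slc2a3 and -2.03 ± 0.20 (4.08-fold) for Slc16a3, where a second probe also gave -2.03. OVA+AEPS vs OVA was -1.06 and -1.26. Of the neutrophil list, 11 of 12 genes had a value and all 11 were detected on all arrays. Mmp9 had 2.06, 2.22, 3.22, 2.04 and 4.10, and Cxcr2 2.07, 4.05, 4.42, 3.60 and 5.63, so that both were highest with alum and next with OVA. The list was not uniform: 8 of the 11 genes were highest with alum, 4 of them with OVA next, and 3 (Lcn2, S100a8 and S100a9) were highest with AEPS. At the low end, 10 of the 11, Cxcr2 included, were lowest with PBS, and only Mmp9 was lowest with OVA+AEPS, as both carriers were. In AEPS vs PBS the median of the 11 was 1.98, where Slc2a3 had -0.005 and Slc16a3 0.002. Lcn2 had 4.01, 7.63, 5.90, 7.18 and 6.71, an order unlike that of both carriers. The summed log2 level of the list ran from 10.3 (PBS) to 11.2 (AEPS), with 11.2 for alum as well. The large peritoneal macrophage list summed to 10.1 with PBS and 9.07 with alum, its lowest, and 9 of its 10 genes were lowest with alum. The other was Gata6, at 0.81 with AEPS, 0.83 with OVA+AEPS and 0.82 with alum. The part of neutrophils in these values was not tested.

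Other carriers of sugars had other orders of the arrays. Slc2a6, a lysosomal hexose carrier, had 6.64 with PBS, 7.80 with AEPS, 7.45 with OVA, 7.78 with OVA+AEPS and 7.04 with OVA+Alum. It was lowest with PBS and differed by 1.16 in AEPS vs PBS (1.498 by a second probe) and by 0.33 in OVA+AEPS vs OVA. Slc17a5, the lysosomal sialic acid carrier sialin, was highest with PBS (3.07) and between 1.72 and 2.44 on the others. Slc37a2, a glucose-6-phosphate exchanger, ran from 0.56 with AEPS to 1.55 with alum, under 2-fold. Of the 18 sugar and sugar phosphate carriers, 3 had a range of at least 2-fold (background 25.9%). So had 3 of the 9 carriers of monocarboxylates and dicarboxylates. Slc16a1, the lactate carrier MCT1, kept within 0.20 over all 5 arrays.

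Of the 28 amino acid carriers, 10 had a range of at least 2-fold (background 25.9%). Slc1a4, a carrier of small neutral amino acids, had 2.53 with PBS, 4.004 with AEPS, 2.94 with OVA, 3.83 with OVA+AEPS and 3.61 with alum. It was 1.48 higher in AEPS vs PBS and 0.89 higher in OVA+AEPS vs OVA, with PBS lowest and OVA next. Slc43a2, a carrier of large neutral amino acids, ran the other way, with 1.75, -0.21, 0.90, 0.11 and 1.08. It was lowest on both AEPS arrays, by -1.96 in AEPS vs PBS and -0.80 in OVA+AEPS vs OVA. Slc7a5, the leucine carrier LAT1, had 1.20, 1.90, 1.46, 2.16 and 1.81, under 2-fold in every comparison by its brightest probe. That probe gave 0.70 in AEPS vs PBS and 0.26 in OVA vs PBS. The median over detected probes gave 0.36 and -0.02. Slc3a2, the partner chain of Slc7a5, kept within 0.25. The glutamine carrier Slc1a5 kept within 0.33. Slc16a10, an aromatic amino acid carrier, was -1.20 in OVA+Alum vs OVA, and a second probe gave -2.16. Slc38a2, a neutral amino acid carrier, was highest with alum (4.197) and between 3.24 and 3.62 on the other arrays. In OVA+Alum vs OVA the median of the 28 was 0.31, beside 0.15 for all 235 and 0.08 for all genes. There 3 were higher (Slc6a20a, Slc38a5 and Slc43a1) and 1 lower. With normexp, Slc38a5 came to 0.50 and Slc43a1 to 0.69, both under 2-fold, and Slc6a20a to 1.35. In OVA+Alum vs PBS the median of the 28 was -0.11 (-0.06 for all genes), with 1 higher and 1 lower. In OVA vs PBS it was -0.28 (-0.13 for all genes), with 0 higher and 3 lower.

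Of the 38 mitochondrial carriers, 6 had a range of at least 2-fold (background 25.9%). Slc25a22, a glutamate carrier, had 0.57 with PBS, 1.70 with AEPS, 0.55 with OVA, 2.04 with OVA+AEPS and 0.89 with OVA+Alum. Both AEPS arrays were above the other 3. The differences were 1.12 ± 0.20 in AEPS vs PBS and 1.49 ± 0.20 in OVA+AEPS vs OVA. With normexp they came to 1.102 and 1.403. Slc25a15, the ornithine carrier of the urea cycle, was high on the AEPS array alone, at -0.59, where the others lay between -3.67 and -3.15. Its 2.56 ± 0.22 in AEPS vs PBS came from 1 probe, and OVA+AEPS vs OVA was 0.27. Slc6a20a too had the AEPS array at least 2-fold above every other, a pattern that 0.314% of all genes shared. The ADP/ATP carrier Slc25a5 kept within 0.26 and the citrate carrier Slc25a1 within 0.39.

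**Figure D4:**
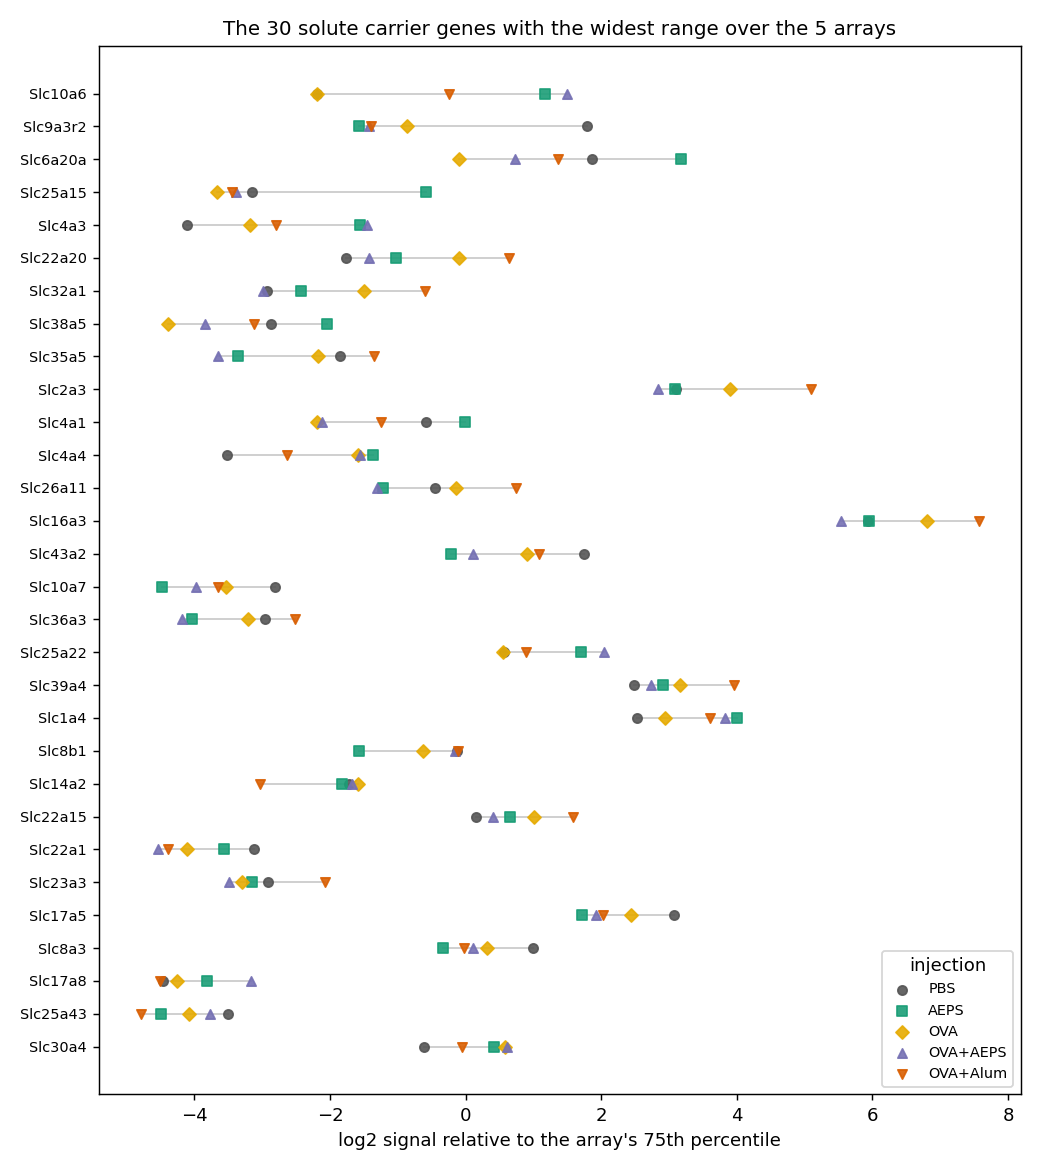
Log2 signal relative to the array's 75th percentile for the 30 genes with the widest range over the 5 arrays, 1 symbol per injection, ordered by range. Slc10a6 has the widest range, 3.68, with both AEPS arrays at the right; for Slc2a3, Slc16a3 and Slc22a20 the alum array is at the right.

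Slc35a5, of the nucleotide sugar carrier family of the Golgi, was lower with AEPS. Its level was -1.85 with PBS, -3.36 with AEPS, -2.17 with OVA, -3.65 with OVA+AEPS and -1.35 with OVA+Alum. Both AEPS arrays were more than 2-fold below each of the other 3, a pattern that 0.49% of all genes shared. AEPS vs PBS was -1.502 ± 0.24 and OVA+AEPS vs OVA -1.48 ± 0.25. These came to -0.77 and -0.70 with normexp, and to -0.84 and -1.32 with spike-in scaling, so the call on this dim probe depends on the background correction and, against PBS, on the scaling. Of the 13 genes of the family, 2 had a range of at least 2-fold (background 25.9%). Slc35d2 was the other, highest with alum (0.23) and lowest with OVA+AEPS (-0.87).

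Lysosomal peptide and nucleoside carriers differed among themselves. Slc15a3, a lysosomal histidine and peptide carrier, had 4.20 with PBS, 5.39 with AEPS, 4.63 with OVA, 5.15 with OVA+AEPS and 4.85 with alum. Its close relative Slc15a4 ran the other way, with 5.51, 4.71, 5.18, 4.93 and 5.57. The differences in AEPS vs PBS were 1.19 and -0.80. With spike-in scaling they came to 1.85 and -0.15. The latter is within its technical SE of 0.20, so the fall of Slc15a4 depends on the scaling. Slc29a3, the lysosomal nucleoside carrier, was -1.19 in AEPS vs PBS and -0.44 in OVA+AEPS vs OVA. The former came to -0.76 with normexp and -0.54 with spike-in scaling, both under 2-fold. The purine nucleoside carrier Slc28a2 kept within 0.43, and the taurine carrier Slc6a6 ran from 2.76 with PBS to 3.52 with OVA+AEPS.

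Of the 18 zinc, copper and other metal carriers, 4 had a range of at least 2-fold (background 25.9%). The group's median range of 0.46 was the smallest of the 15 groups. Slc39a4, a zinc importer, had 2.48 with PBS, 2.90 with AEPS, 3.16 with OVA, 2.74 with OVA+AEPS and 3.96 with alum. Slc30a4, which moves zinc into vesicles, was lowest with PBS (-0.62) and 1.04 higher with AEPS and 1.21 higher with OVA. Slc31a2, linked to copper, was -1.19 in OVA+Alum vs OVA (-0.75 by a second probe). Of the 8 calcium and magnesium carriers, all 8 lay below 0 in AEPS vs PBS, as did 159 of the 235 genes. Their median was -0.67, a sign that rests on the scaling. In OVA+AEPS vs OVA, 5 of the 8 lay below 0, with a median of -0.11 and 0 at least 2-fold lower. Slc8b1, the mitochondrial sodium-calcium exchanger, was low on the AEPS array alone, at -1.57 beside -0.63 to -0.12. It was the 1 gene at least 2-fold higher in OVA+AEPS vs AEPS, at 1.42, where a second probe gave 0.49. Slc8a3, of the same family, was -1.34 in AEPS vs PBS, while a second probe gave -0.34.

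Among the phosphate and sulfate carriers, Slc26a11, a sulfate carrier, had -0.45 with PBS, -1.22 with AEPS, -0.15 with OVA, -1.31 with OVA+AEPS and 0.74 with alum. The alum array was highest and both AEPS arrays were lowest, and OVA+AEPS vs OVA+Alum was -2.04. Slc20a1, a phosphate carrier, kept within 0.55. Of the transmitter carriers, Slc32a1, the vesicular carrier of GABA and glycine, was highest with alum by its brighter probe, with -2.39 in OVA+AEPS vs OVA+Alum. A second probe gave 0.30, so no direction is given for it. Slc17a8, a vesicular glutamate carrier, was 1.09 in OVA+AEPS vs OVA from a dim probe and 0.31 with normexp.

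No vitamin or choline carrier of the 9 had a range of at least 2-fold by its brightest probe (background 25.9%). The nearest to it were the riboflavin carrier Slc52a3, with a range of 0.98, and the folate carriers Slc19a1, at 0.96, and Slc46a1, at 0.95. For Slc46a1, the median over its detected probes was -1.23 in AEPS vs PBS, where the brightest probe gave -0.95. Slc19a1 was 3.07 and 2.97 on the 2 AEPS arrays and between 2.12 and 2.37 on the others. Of the remaining genes, the urea carrier Slc14a2 was low on the alum array alone, at -3.04, with -1.83 to -1.58 elsewhere, from 1 probe. Its -1.45 in OVA+Alum vs OVA was -0.85 with normexp, under 2-fold. An alum array at least 2-fold below every other was found for 0.431% of all genes. Slc9a3r2, a scaffold protein, was high on the PBS array alone, at 1.79, and between -1.58 and -0.86 elsewhere. Its -3.37 in AEPS vs PBS was -1.02 by a second probe, so the size differs between probes while both were at least 2-fold lower. A PBS array at least 2-fold above every other was found for 0.702% of all genes. Slc10a7 was -1.67 in AEPS vs PBS and -0.54 with normexp.

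Across the genes called in AEPS vs PBS, 10 had a further detected probe, 6 of these were also at least 2-fold the same way and 0 had the opposite sign. Between the adjuvants, 7 called genes had one, with 3 the same way and 1 opposite. Of 22 partners and related transporters, 17 were detected on all arrays. In AEPS vs PBS none was higher and 1 lower (Atp1b2, a sodium pump subunit, at -1.02), and the median was -0.09. In OVA+AEPS vs OVA none was higher and 1 lower, Slco4a1, an organic anion carrier, at -1.26. Bsg, the chaperone of the lactate carriers Slc16a1 and Slc16a3, was lowest with alum, at 2.79, where Slc16a3 was highest, and had 3.70 with PBS and 3.28 to 3.34 on the others.

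The dimmest genes inside the rule were Slc13a2, Slc46a2, Slc2a10 and Slc5a3, with single levels between -5.15 and -4.22. Just outside it were 7 genes above background on 4 arrays. Of these, Slc17a1 was not above background with PBS (-5.26) and had -1.78 with AEPS, -1.38 with OVA, -1.89 with OVA+AEPS and -3.33 with alum. Slc26a9 too failed on the PBS array, Slc1a6 and Slc38a8 failed on OVA+AEPS, and Slc25a23, Slc27a2 and Slc5a4a on AEPS.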

How the data were processed

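Peritoneal lavage cells were measured on Agilent arrays labelled with Cy3 (design Agilent-028005), 1 array for each of 5 injections on 1 slide. Per the file headers, each deposited scanner file holds linear intensity as written by Agilent Feature Extraction 10.7.1.1. The deposited series table holds log2 values of the authors, with a median of 4.66 in each column and a correlation of at least 0.9998 with the log2 processed signal; that it was scaled between arrays was read from the values. Flags of 0 or 1 per spot are other deposited values.

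From these, control spots (3671 of 62976) and 134 to 219 outlier spots per array were left out, 0 spots were saturated, log2 of the processed signal was used, and the array's 75th percentile was subtracted. Spots of a probe were averaged (median SD 0.048 to 0.074), and the brightest probe stood for a gene. Gene symbols came from matching RefSeq transcripts of GRCm38.p6 to the systematic name: 26582 of 55681 probes had 1 symbol and 29099 none. The promoter sequences are RefSeq's, of GRCm38.p6; for genes with several starts the most 5′ was used. The motif letters are shortened forms and were chosen after seeing the data.

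The genes, the lists and the substrate groups were chosen with earlier results of these data known; the groups were assigned by hand from the gene family, and 1 name and 1 gene's group were corrected after the values were seen. Named genes were, per comparison, up to 6 each way with the largest difference; per substrate group, up to 3 with the widest range; those called in both AEPS comparisons; the 4 brightest and 4 dimmest; 21 carriers of immune cell metabolism; and those above background on 4 arrays. Among the list genes not detected on all arrays were Lrrn4, Slco1a5, Slco4c1 and Slco5a1, and Ly6g and Ly6c2 had no matched probe. Some named genes are not reported here. The summed log2 level of the other lists ran from 8.06 to 8.79 for monocytes, 8.37 to 9.26 for mast cells, 8.68 to 9.40 for B cells, 7.95 to 8.44 for T and NK cells and 2.19 to 3.24 for mesothelial cells.

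No test was run, since each group has 1 array. Background correction by normexp (offset 50) used limma 3.58.1 in R 4.3.3, and the rest used Python 3.11.15, numpy 2.4.6 and pandas 2.3.3. The counting was tested on simulated data. The number of arrays limits the precision. Alternatives were array median scaling, quantile normalization, normexp, the deposited table, the median over probes, looser detection filters and a 1.5-fold threshold; spike-in scaling and other control arrays were added after seeing the data.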

Additional observations from a re-analysis of the deposited data

How the results depend on the processing

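Counts of solute carrier genes at least 2-fold different are given as higher and lower. In AEPS vs PBS (10 and 17), normexp gave 6 lower, spike-in scaling 39 and 3, no detection filter 18 and 36, a 1.5-fold threshold 20 and 62, and the OVA array as control 3 lower. In OVA vs PBS (7 and 6), the same settings gave 4 and 3 with normexp, 14 higher with spike-in scaling, 17 and 22 with no filter and 19 and 36 at 1.5-fold. Detection on at least 1 of the 2 arrays gave 15 and 10. In OVA+AEPS vs OVA (4 and 6), normexp gave 2 and 2, detection on 1 array 7 and 11, no filter 23 and 16, 1.5-fold 15 and 15, and the PBS array as control 8 and 13. In OVA+Alum vs OVA (6 and 4), normexp gave 3 and 2, detection on 1 array 9 lower, no filter 21 and 12, 1.5-fold 30 and 13, and the PBS array as control 10 and 10. Between the adjuvants, OVA+AEPS against OVA+Alum (7 and 16), normexp gave 2 and 8, detection on 1 array 13 higher, no filter 25 and 29, and 1.5-fold 20 and 48. In OVA+AEPS vs AEPS (1 and 4), spike-in scaling gave 7 lower, detection on 1 array 5 higher, no filter 16 and 10, and 1.5-fold 3 and 8. A looser filter admits dim probes and a lower threshold admits smaller differences by construction; the cause of the other shifts was not tested. With array median scaling the split of OVA+AEPS vs OVA was 3 and 9, and between the adjuvants it was 5 and 24; quantile normalization and the deposited table gave 3 and 7 for the former.

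Of the 426 differences of named genes, none that was called changed sign under these settings, while 172 moved by more than their technical error with spike-in scaling, 90 with normexp and 48 with the median over probes. Of the 77 that were at least 2-fold, 33 were under 2-fold with normexp. Among those that normexp took under 2-fold were Slc25a43, Slc4a5, Slc8a2, Slc35a5, Slc38a5, Slc10a7 and Slc17a8. No replicate could be left out, and no paired analysis was possible because each injection has 1 array.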
